A study of Mus musculus with 4 samples.

Results

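The 39 Hox genes of the mouse were examined in RNA-Seq libraries of cardiac progenitor cells (CPCs) with and without Isl1. The members were all gene symbols made of Hox, a cluster letter from a to d and a number. They were 39 of the 20701 symbols in the deposited transcript table, with 11 in HoxA, 10 in HoxB, 9 in HoxC and 9 in HoxD, and each was represented by its transcript entry with the most counts. There were 4 libraries, 2 from control cells and 2 from Isl1_KO cells, and each group held clones described as different. Both groups came from E14 Tg(Nkx2-5-EmGFP) embryonic stem (ES) cells, which carry a green fluorescent reporter of the cardiac transcription factor gene Nkx2-5 and were kept on mitomycin-treated mouse embryonic fibroblasts before differentiation. The Isl1_KO cells were Isl1-/- clones of this line, edited with CRISPR/Cas9. GFP-positive cells of all clones were sorted on day 5 of differentiation, so by this description each library is 1 clone. The p-values below rest on a spread shared by both groups, although the control pair varied far less than the Isl1_KO pair. Whether the control pair carries the spread between separate clones was not tested. The titles of the samples name a knockout and the series' design text a knockdown; the titles were followed.

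Hox genes encode homeodomain transcription factors that give cells their position along the head-to-tail axis. In each cluster the order of the genes along the chromosome follows the order of their expression domains, with low paralogue numbers anterior and high numbers posterior. Hox proteins bind DNA together with the TALE homeodomain cofactors Meis and Pbx, and retinoic acid and Cdx factors are known to activate the clusters. In the embryo, anterior members such as Hoxb1 and Hoxa3 are expressed in progenitors of the posterior second heart field, the domain that also expresses Isl1.

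The depth was 8821517 and 9147425 counts in control replicates 1 and 2 and 13186109 and 11388333 counts in Isl1_KO replicates 1 and 2, so that 3 counts corresponded to between 0.231 and 0.341 CPM (counts scaled to the library total). Isl1 was measured at 35.4 ± 0.421 CPM in the control clones and at 1.69 ± 0.548 CPM in the Isl1_KO clones (mean ± SD, n = 2 libraries, as for all groups below), and Nkx2-5, the reporter gene, had 186 and 181 counts in the controls and 62 and 50 in Isl1_KO libraries. Over all 12715 genes tested, 311 passed an edgeR adjusted p of 0.05, which is 2.45%. Of these, 247 were lower in Isl1_KO cells (1.94% of genes tested) and 64 were higher (0.503%). The spread between libraries, as the edgeR biological coefficient of variation, was 1.26% in the control pair and 16.3% in the Isl1_KO pair. Over both pairs jointly this coefficient was 11.1%, below that of the Isl1_KO pair. Of the 11 cardiac progenitor markers tested, 8 were called lower and 10 had a log2 fold change below 0, the exception being Hand1 (0.24). Log2 fold changes were -5.67 for Myl7 (atrial myosin light chain), -4.35 for Tnnt2 (cardiac troponin T) and -4.24 for Myl4 (myosin light chain). They were -4.23 for Mef2c (a cardiac transcription factor) and -3.62 for Tbx5 (a T-box factor of the first heart field). In a bulk library fewer cells of a type cannot be told apart from less RNA per cell. Without control replicate 1 or control replicate 2, when the spread comes from the Isl1_KO pair alone, the adjusted p of Isl1 was 0.0599 and 0.0506, and that of Tbx5 was 0.0938 and 0.0821; Tnnt2, Myl4 and Mef2c each had 0.0509 and 0.0452, and the call of Myl7 remained.

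Hox proteins recognise DNA through the homeodomain, and the stretch of the homeobox that encodes its recognition helix is shown for paralogue group 10, because Hoxa10 was called and its paralogues Hoxc10 and Hoxd10 were not. Each line gives the last 60 of 180 homeobox bases on the coding strand, with NCBIM37 coordinates, and capitals mark bases that differ from the first line.
Hoxa10, chr6:52182553-52182612, minus strand: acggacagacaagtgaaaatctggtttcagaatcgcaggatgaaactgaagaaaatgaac
Hoxc10, chr15:102801399-102801458, plus strand: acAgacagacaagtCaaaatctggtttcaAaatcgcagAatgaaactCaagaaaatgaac
Hoxd10, chr2:74532318-74532377, plus strand: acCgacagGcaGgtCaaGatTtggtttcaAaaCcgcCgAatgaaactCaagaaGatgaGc

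In these 60 bases Hoxc10 and Hoxd10 differed from Hoxa10 at 5 and 13 positions. Over the whole homeobox, identity within a paralogue group had a median of 80.6% and reached 93.9% at most (42 pairs), against a median of 60.6% for the 699 pairs across groups. An identical stretch of 50 bases, which a read could match in both genes, occurred between the transcripts of 5 pairs of Hox genes. The pairs with more than a few such stretches were Hoxd3 with Hoxd4, Hoxb7 with Hoxb8 and Hoxa2 with Hoxa3, neighbours whose annotated exons overlap on the same strand, so reads of these pairs may have been counted for both genes.

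The 250 bases upstream of the RefSeq transcript start are shown for 4 genes: Hoxa9 and Hoxa10, which were called lower, and Hoxb8 and Hoxd4, whose windows held motif matches and whose log2 fold changes had opposite signs. Coordinates are NCBIM37, and capitals mark TTTATG, a core of Cdx sites, and TGATNNAT, the composite Pbx-Hox site. None of these windows overlapped an annotated exon.
Hoxa9, chr6:52177370-52177619, minus strand: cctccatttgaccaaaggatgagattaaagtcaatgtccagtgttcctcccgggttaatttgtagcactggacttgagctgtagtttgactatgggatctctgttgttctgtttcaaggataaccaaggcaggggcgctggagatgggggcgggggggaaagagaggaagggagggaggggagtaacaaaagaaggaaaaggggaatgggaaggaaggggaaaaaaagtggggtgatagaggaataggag
Hoxa10, chr6:52190854-52191103, minus strand: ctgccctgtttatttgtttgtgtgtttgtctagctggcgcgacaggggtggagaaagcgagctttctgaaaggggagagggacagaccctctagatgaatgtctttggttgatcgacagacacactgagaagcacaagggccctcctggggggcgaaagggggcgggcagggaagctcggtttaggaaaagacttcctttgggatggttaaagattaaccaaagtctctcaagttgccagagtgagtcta
Hoxb8, chr11:96142969-96143218, plus strand: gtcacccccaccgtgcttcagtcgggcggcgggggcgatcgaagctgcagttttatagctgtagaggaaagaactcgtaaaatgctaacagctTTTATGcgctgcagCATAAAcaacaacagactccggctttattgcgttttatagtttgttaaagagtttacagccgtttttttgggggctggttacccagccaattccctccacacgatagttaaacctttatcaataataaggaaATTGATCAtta
Hoxd4, chr2:74559785-74560034, plus strand: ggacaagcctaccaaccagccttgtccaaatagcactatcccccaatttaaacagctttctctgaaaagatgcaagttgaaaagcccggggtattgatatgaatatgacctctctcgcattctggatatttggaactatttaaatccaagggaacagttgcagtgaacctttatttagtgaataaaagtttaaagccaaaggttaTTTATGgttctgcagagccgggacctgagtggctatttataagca

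RefSeq promoters on GRCm38.p6 were found for 22 of the 39 symbols (24 windows), and both strands were searched. TTTATG was present in 5 of the 24 Hox windows (Hoxa7, Hoxb8, Hoxd3, Hoxd4 and Hoxd11) and in 10.8% of all 32851 promoter windows of the same length. TGATNNAT was present in 4 of the 24 (Hoxa2, Hoxb1, Hoxb8 and Hoxd11), against 7.68% of all windows. TGACAG, the core of Meis sites, was found upstream of Hoxa2 and Hoxa3 and in 15.9% of all windows, and CTAATG, a core bound by LIM-homeodomain factors, upstream of Hoxa5 and Hoxb1 and in 6.36%. The direct repeat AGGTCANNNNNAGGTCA, a form bound by retinoic acid receptors, was in 0 of the 24 and in 0.00913% of all windows. At so low a rate a match among 24 windows was unlikely in any case. Other forms and sequence outside the windows were not searched. A match describes the letters in the window and is not a binding site.

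Hox transcripts were present at low to moderate levels in control CPCs. The highest mean RPKM (reads scaled to transcript length and library total) in control cells was that of Hoxb2 at 10.1, followed by Hoxd9 at 6.16, Hoxb3 at 4.90, Hoxb6 at 4.58, Hoxc8 at 3.86 and Hoxd1 at 3.55. The order of the genes by mean RPKM was not tested. In Isl1_KO cells the highest mean RPKM was again that of Hoxb2 at 14.1, with Hoxb6 at 7.94, Hoxb3 at 6.41, Hoxd1 at 4.55 and Hoxb5 at 3.35. Hoxb5 stood at rank 18 in control and at rank 5 in Isl1_KO cells. The 9 members not tested (Hoxa2, Hoxa3, Hoxa4, Hoxa6, Hoxb13, Hoxc11, Hoxc12, Hoxc13 and Hoxd12) had between 0 and 10 counts in each library, at most 35 in all 4 together. Hoxb13 had 0 counts in every library.

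**Figure D1:**
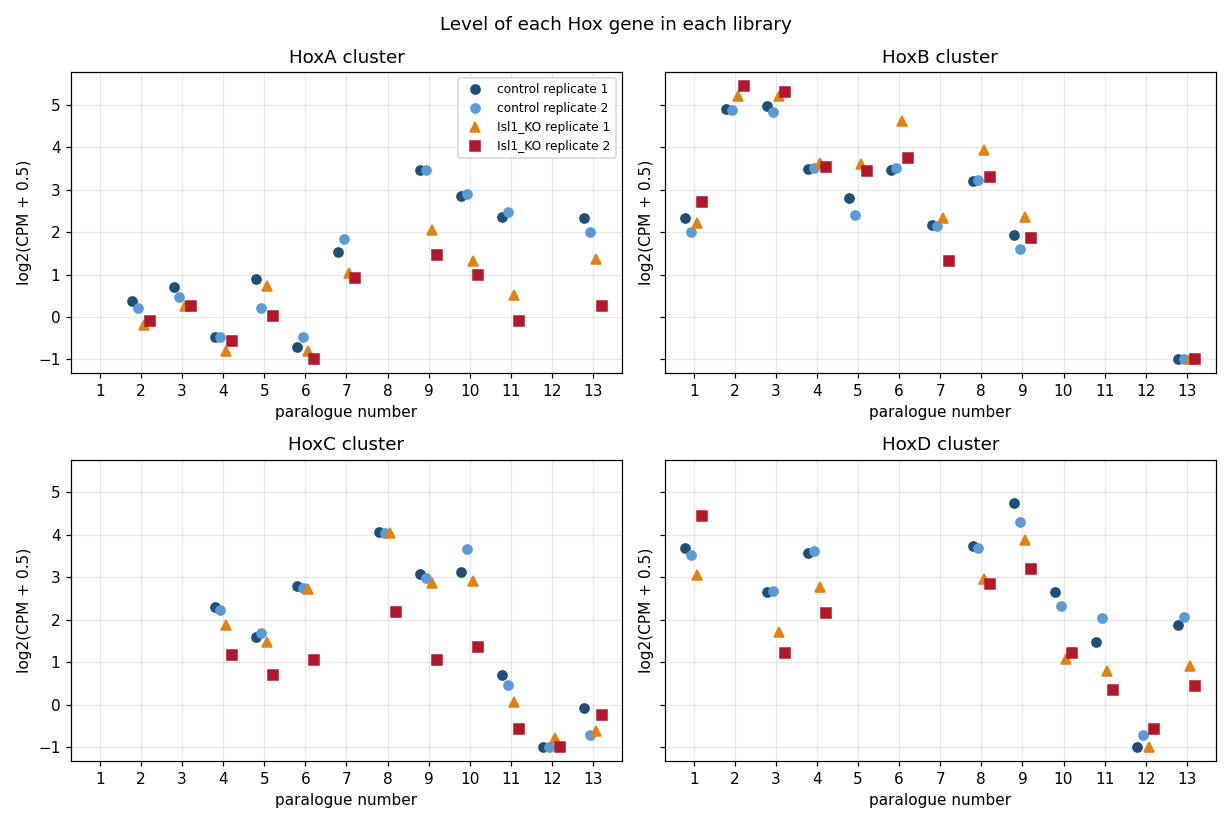
Each panel plots log2(CPM + 0.5) of the genes of 1 cluster (38 genes in all) against paralogue number, with circles for the 2 control libraries, triangles for Isl1_KO replicate 1 and squares for Isl1_KO replicate 2. In HoxA the Isl1_KO points lie below the control points at numbers 9 to 13, in HoxB 6 of the 9 tested genes have both Isl1_KO points above, and in HoxC the squares are the low points for the 6 tested genes.

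The comparison of Isl1_KO with control cells asked which Hox genes of these progenitors depend on Isl1. The posterior HoxA genes Hoxa9, Hoxa10 and Hoxa11, were called lower in Isl1_KO cells, 3.59-, 3.94- and 7.14-fold as a ratio of mean CPM, and 0 of the 30 tested members were called higher. The 3 calls are 10% of the members tested, beside 1.94% of all genes tested called lower. Of the 30, 20 had a log2 fold change (Isl1_KO against control) below 0, beside 50.4% of all genes, and the median over the members was -0.75, beside -0.0027 over all genes tested. Both Isl1_KO libraries lay below both control libraries for 17 members and above them for 6, where 29.0% and 29.1% of all genes did so, and the groups overlapped for the other 7. At an unadjusted edgeR p under 0.05, 12 members were lower (12.2% of all genes) and 3 higher (11.0%).

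**Figure D2:**
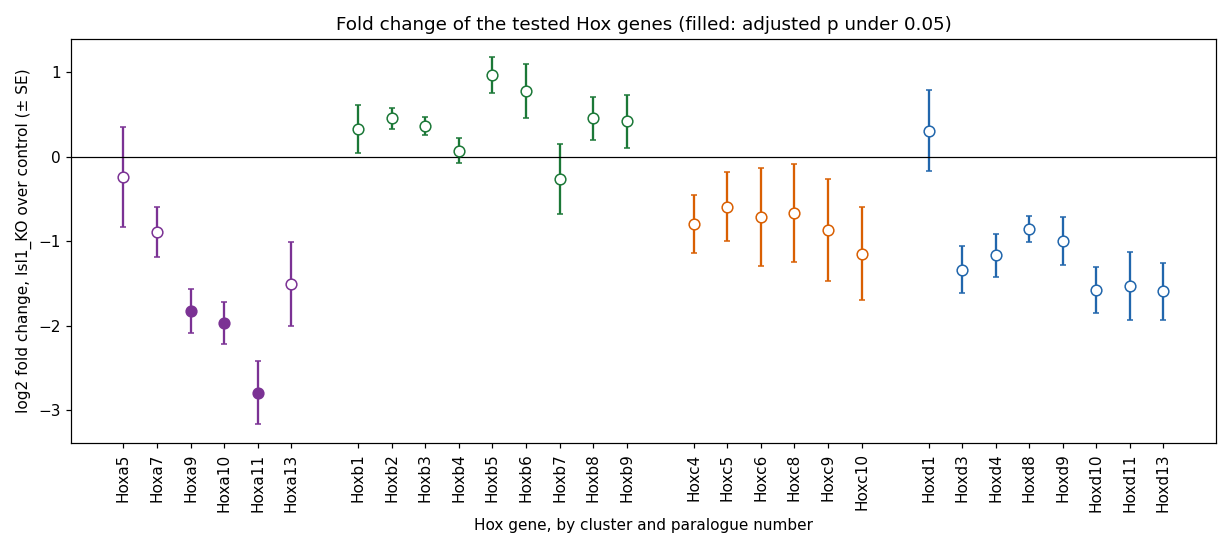
Points show the log2 fold change of Isl1_KO over control of 29 tested Hox genes with bars of 1 SE from edgeR, ordered by cluster and paralogue number, and filled points mark an adjusted p under 0.05. The filled points are Hoxa9, Hoxa10 and Hoxa11 at -1.83, -1.97 and -2.79.

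In HoxA on chromosome 6, 3 genes of the posterior end of the cluster were lower in Isl1_KO cells. Hoxa9 (chr6:52173099-52181088), a posterior patterning gene also expressed in blood progenitors, was measured at 10.6 and 10.5 CPM in the control and 3.61 and 2.26 CPM in the Isl1_KO libraries (log2 fold change -1.83, SE 0.262, edgeR adjusted p = 0.0401). Hoxa10 (chr6:52181196-52190853), which patterns the lumbar axis and the uterus, was at 6.70 and 7.003 CPM in control and 2.00 and 1.48 CPM in Isl1_KO libraries (log2 fold change -1.97, SE 0.251, edgeR adjusted p = 0.0332). Both genes had non-overlapping groups with at least 17 counts in every library. The exons of Hoxa9 overlap those of 9930038K12Rik, Mir196b and RP23-329P9.11 on the same strand, so part of its reads may belong to these. Hoxa11 (chr6:52192107-52196213), a gene of the forelimb zeugopod and the urogenital tract, was at 4.65 and 5.03 CPM in control and 0.922 and 0.434 CPM in Isl1_KO libraries (log2 fold change -2.79, SE 0.375, edgeR adjusted p = 0.0359). Hoxa11 had only 12 and 5 counts in the Isl1_KO libraries, and its exons overlap those of the antisense gene Hoxa11as, whose reads cannot be told apart because both strands were counted together. Hoxa13, the most posterior HoxA gene, which patterns digits and hindgut, was at 4.54 and 3.50 CPM in control and 2.08 and 0.694 CPM in Isl1_KO libraries and was not called (log2 fold change -1.50, SE 0.497, edgeR adjusted p = 0.169).

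The central genes Hoxa5 and Hoxa7 did not pass the test. Hoxa7, a thoracic patterning gene, was at 2.38 and 3.06 CPM in control and 1.54 and 1.39 CPM in Isl1_KO libraries (log2 fold change -0.89, edgeR adjusted p = 0.172). Hoxa5, needed for lung and cervical patterning, had 6 to 15 counts per library, and the groups overlapped (log2 fold change -0.24). The calls of Hoxa9, Hoxa10 and Hoxa11 were lost when either control library was left out, with adjusted p of 0.451, 0.404 and 0.401 without control replicate 1 and 0.424, 0.405 and 0.403 without control replicate 2, when 8 and 17 genes in all were called; their log2 fold changes stayed between -3.44 and -1.54 with any library left out. Hoxa11 was not tested when at least 10 counts in every library were required, which kept 26 members and 2 calls.

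In HoxD on chromosome 2, 0 of the 8 tested genes were called by edgeR. All tested genes from Hoxd3 to Hoxd13 had lower values in both Isl1_KO libraries than in both controls, as did 29.0% of all genes. Of the 8, 7 were lower at an unadjusted edgeR p under 0.05, beside 12.2% of all genes. DESeq2 called 1, Hoxd4, lower, beside 3.18% of genes. The log2 fold changes of the 7 lay between -1.59 and -0.85 and their adjusted p between 0.0606 and 0.133. Hoxd10, a hindlimb and lumbar patterning gene, had the smallest adjusted p and was at 5.79 and 4.49 CPM in control and 1.61 and 1.82 CPM in Isl1_KO libraries (log2 fold change -1.58, SE 0.269, edgeR adjusted p = 0.0606). Hoxd9 had the highest level of the cluster, 26.5 and 19.4 CPM in control and 14.1 and 8.68 CPM in Isl1_KO libraries (log2 fold change -0.998, SE 0.281, edgeR adjusted p = 0.133). The control and Isl1_KO values of both genes did not overlap, and exons of Hoxd10 and Hoxd11 overlap those of Gm20440 on the same strand.

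Hoxd4, a hindbrain and cervical patterning gene, was at 11.5 and 11.8 CPM in control and 6.30 and 3.99 CPM in Isl1_KO libraries (edgeR adjusted p = 0.0868), and Hoxd3, whose exons overlap those of Hoxd4, was at 5.79 and 5.91 CPM and 2.77 and 1.82 CPM (edgeR adjusted p = 0.0813). Hoxd8 was at 12.9 and 12.4 CPM in control and 7.30 and 6.68 CPM in Isl1_KO libraries, the HoxD gene with the smallest SE among those with lower values (log2 fold change -0.85, SE 0.157, edgeR adjusted p = 0.0675). Hoxd11 was at 2.27 and 3.61 CPM in control and 1.23 and 0.781 CPM in Isl1_KO libraries, and Hoxd13, the digit patterning gene, at 3.18 and 3.72 CPM and then 1.38 and 0.868 CPM (edgeR adjusted p = 0.119 and 0.0835). Hoxd1, the most anterior gene of the cluster, stood apart from its neighbours, with 12.4 and 11.1 CPM in control and 7.76 and 21.4 CPM in Isl1_KO libraries, so that 1 Isl1_KO clone was below both controls and the other above both (log2 fold change 0.31, SE 0.478, edgeR adjusted p = 0.740). Its log2 fold change was -0.59 without Isl1_KO replicate 2 and 0.87 without Isl1_KO replicate 1.

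The HoxB genes on chromosome 11 had mostly higher values in Isl1_KO cells, and 0 of the 9 tested were called by edgeR or DESeq2 at an adjusted p of 0.05. At an unadjusted p, 3 were higher (Hoxb2, Hoxb3 and Hoxb5), where 11.0% of all genes were. Of the 9 log2 fold changes, 8 were above 0. Hoxb5, a gene expressed in trunk mesoderm and neural crest, was at 6.47 and 4.82 CPM in control and 11.7 and 10.4 CPM in Isl1_KO libraries (log2 fold change 0.97, SE 0.209, edgeR adjusted p = 0.0868). Hoxb2, a hindbrain segment gene, was at 29.2 and 28.8 CPM in control and 36.3 and 43.2 CPM in Isl1_KO libraries (log2 fold change 0.45, SE 0.123, edgeR adjusted p = 0.124). Hoxb3 was at 30.9 and 27.9 CPM and then 36.6 and 39.0 CPM (log2 fold change 0.36, SE 0.108, edgeR adjusted p = 0.143). For these 3 genes both Isl1_KO libraries were above both controls, and the exons of each overlap a gene on the opposite strand (0610040B09Rik for Hoxb5 and Hoxb3os for the others), so part of the reads may come from that gene.

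Hoxb6, a trunk mesoderm gene, was at 10.4 and 10.9 CPM in control and 23.8 and 12.8 CPM in Isl1_KO libraries, and Hoxb8, a central gene used in haematopoietic progenitors, was at 8.74 and 8.86 CPM and then 14.8 and 9.37 CPM (edgeR adjusted p = 0.223 and 0.342). For both, Isl1_KO replicate 1 was well above and replicate 2 just above the controls. Hoxb4, a regulator of blood stem cells, was at 10.8 and 10.9 CPM in control and 11.8 and 11.02 CPM in Isl1_KO libraries, with a log2 fold change of 0.07. Hoxb1, expressed in the second heart field and hindbrain, was at 4.54 and 3.50 CPM and then 4.15 and 5.99 CPM, Hoxb9 at 3.29 and 2.52 CPM and then 4.61 and 3.12 CPM, and Hoxb7 at 3.97 and 3.94 CPM and then 4.54 and 2.00 CPM. These 3 genes had overlapping groups, with log2 fold changes of 0.33, 0.42 and -0.26.

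The HoxC genes on chromosome 15 separated the Isl1_KO clones. Hoxc8, a thoracic patterning gene and the HoxC gene with the most counts, was at 16.4 and 15.98 CPM in control, 16.1 CPM in Isl1_KO replicate 1 and 4.08 CPM in replicate 2 (log2 fold change -0.67, SE 0.578, edgeR adjusted p = 0.530). Hoxc9 was at 7.95 and 7.44 CPM in control and 6.76 and 1.56 CPM in Isl1_KO libraries, Hoxc6 at 6.47 and 6.24 CPM and then 6.07 and 1.56 CPM, and Hoxc10, a lumbar and hindlimb gene, at 8.29 and 12.3 CPM and then 7.07 and 2.08 CPM. Replicate 1 was thus at or a little under the controls and replicate 2 far below them. Hoxc4 was at 4.43 and 4.16 CPM in control and 3.15 and 1.74 CPM in Isl1_KO libraries, and Hoxc5 at 2.50 and 2.74 CPM and then 2.31 and 1.13 CPM. Exons of Hoxc5 and Hoxc10 overlap those of Gm20398 on the same strand. All 6 tested HoxC genes had log2 fold changes below 0, between -1.15 and -0.59, yet 0 had an unadjusted p under 0.05 and 0 were called by edgeR or DESeq2. The median log2 fold change of the 6 was -0.75, and it was -0.18 without Isl1_KO replicate 2 and -1.999 without Isl1_KO replicate 1.

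The summed level of HoxB was higher and the sums of the other 3 clusters were lower in both Isl1_KO libraries than in both controls. The HoxB sum was 108.3 and 102.2 CPM in control and 148.3 and 136.9 CPM in Isl1_KO libraries, or 141% and 130% of the control mean. The HoxA sum was 41.4 and 39.4 CPM in control and 22.5 and 15.8 CPM in Isl1_KO libraries (55.7% and 39.1%), and the HoxD sum was 80.3 and 72.4 CPM and then 42.5 and 46.2 CPM (55.7% and 60.6%). The HoxC sum was 47.6 and 49.8 CPM in control, 42.2 CPM in Isl1_KO replicate 1 and 12.7 CPM in replicate 2 (86.7% and 26.0%). The sum over all 39 members was 277.5 and 263.8 CPM in control and 255.5 and 211.6 CPM in Isl1_KO libraries, which is 94.4% and 78.2% of the control mean. These sums are descriptive, and with 2 libraries against 2 an exact permutation test cannot give a two-sided p under 0.333.

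**Figure D3:**
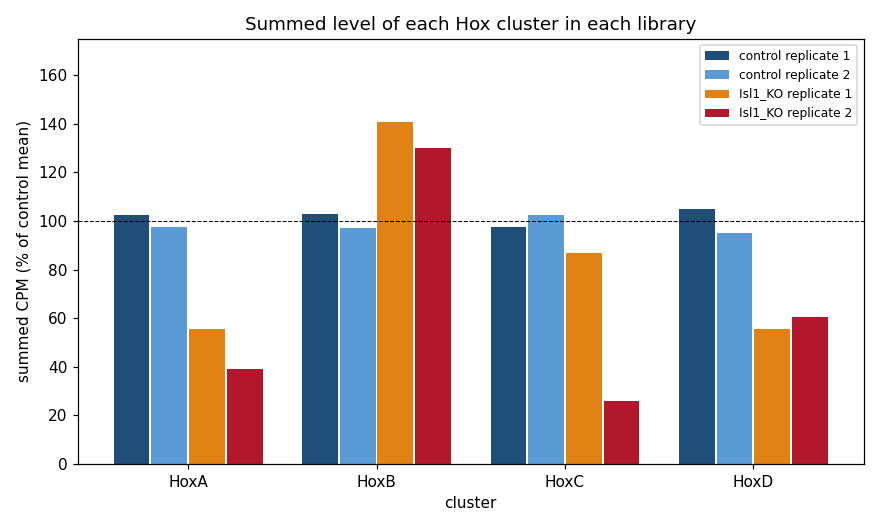
Bars show the summed CPM of each cluster in each of the 4 libraries as a percentage of the control mean, which the dashed line marks at 100%. HoxB stands at 141% and 130% in the Isl1_KO libraries, and HoxC at 86.7% and 26.0%.

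Across paralogue numbers, the log2 fold changes tended to be lower towards the posterior end in HoxA, HoxC and HoxD, but not in strict order. In HoxD, Hoxd3 (-1.34) and Hoxd4 (-1.17) were lower than Hoxd8 (-0.85) and Hoxd9 (-0.998). Hoxd1, the HoxD gene with the highest value, was split between the Isl1_KO clones. In HoxC, 0 genes had an unadjusted edgeR p under 0.05. Of the 11 tested members of groups 9 to 13, 10 had a log2 fold change below 0, the exception being Hoxb9, and their median was -1.53. The median was -0.59 over the 13 tested members of groups 4 to 8 and 0.32 over the 6 of groups 1 to 3, where Hoxd3 was the member below 0. Spearman's rho between log2 fold change and paralogue number was -0.643 over the 30 members, -0.786 in HoxA (n = 7), -0.762 in HoxD (n = 8), -0.600 in HoxC (n = 6) and 0.183 in HoxB (n = 9). This is a description across genes that share the same 4 libraries and, for neighbours, exons. In the sum of Hox RPKM, groups 9 to 13 made up 31.4% and 30.6% in control and 18.2% and 11.1% in Isl1_KO libraries, while groups 1 to 3 made up 31.8% and 31.2% and then 35.4% and 55.2%. HoxB made up 39.3% and 39.6% of the summed RPKM in control and 59.2% and 65.0% in Isl1_KO libraries.

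**Figure D4:**
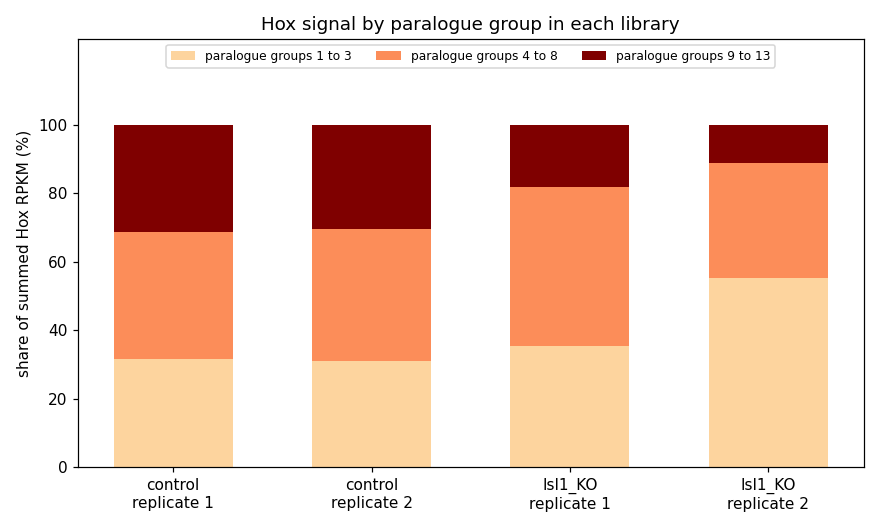
Stacked bars show the share of the summed Hox RPKM of each library, in percent, that came from paralogue groups 1 to 3, 4 to 8 and 9 to 13. Groups 9 to 13 take 31.4% and 30.6% in the control and 18.2% and 11.1% in the Isl1_KO libraries.

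The Isl1_KO clones differed from each other over most of the members. The value in Isl1_KO replicate 2 was lower than in replicate 1 for 25 of 30 tested Hox genes, including 7 of 7 in HoxA and 6 of 6 in HoxC, where 48.3% of all genes tested were lower in replicate 2. The median log2 ratio to the control mean was -0.28 in replicate 1 and -1.02 in replicate 2. In HoxB it was 0.32 and 0.25, and in HoxD it was -0.90 and -1.39. The 5 members higher in replicate 2 were Hoxb1, Hoxb2, Hoxb3, Hoxd1 and Hoxd10. Left out in turn, each Isl1_KO clone moved the number of Hox genes called from 3 to 24 (without replicate 1, when 49.8% of all genes were called) and to 18 (without replicate 2, when 33.0% were called), because the spread was then taken from the control pair alone.

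**Figure D5:**
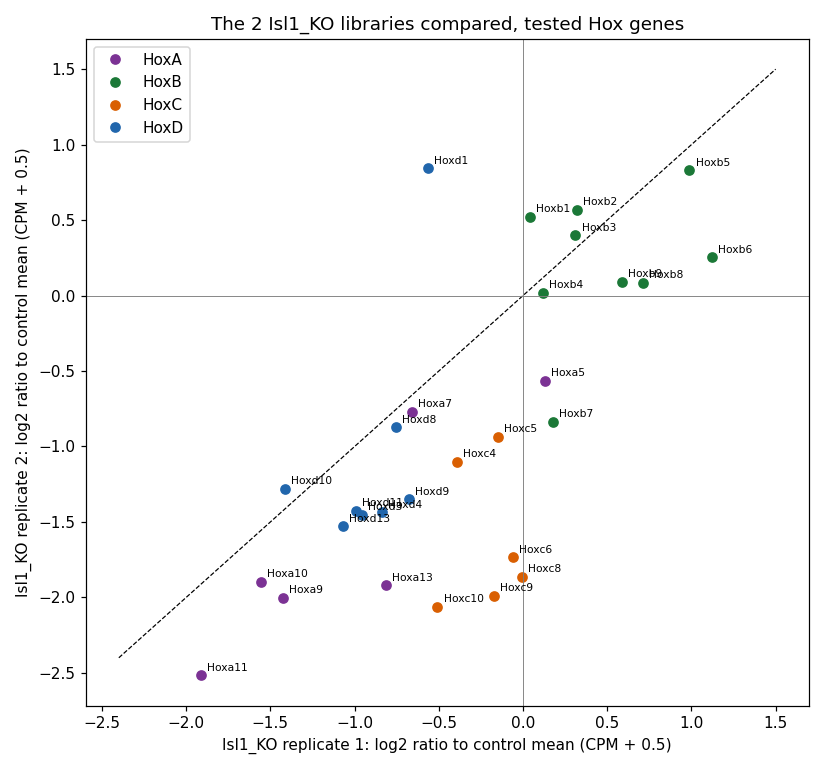
Each point is 1 of 29 tested Hox genes, with the log2 ratio of its CPM + 0.5 to the control mean in Isl1_KO replicate 1 (horizontal) and replicate 2 (vertical), coloured by cluster. On the dashed line the clones are equal, and 24 of the 29 points lie below it.

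Of all genes tested, 48.3% were lower in Isl1_KO replicate 2 than in replicate 1, as were 25 of the 30 tested Hox genes. Most fibroblast markers, which mesenchymal cells also express, had the same order. This held for 12 of the 13 tested, all but Thy1 (2.31 and 3.82 CPM in Isl1_KO replicates 1 and 2), and Tbx15 was above both controls in both clones; these exceptions, Col1a1 and Col3a1 were chosen for mention after their values were seen. The list had a summed level, carried mainly by abundant genes such as Col1a1 and Col3a1, of 2850 and 2788 CPM in control and 1995 and 876 CPM in Isl1_KO libraries. Of the 14 listed, 1 was called, lower: Prrx1, a mesenchymal homeobox gene, fell from 13.9 and 16.2 CPM to 4.996 and 3.99 CPM (edgeR adjusted p = 0.0240, and 0.275 and 0.356 without control replicate 1 and 2). At an unadjusted p, 6 were lower and 1 higher, where 12.2% and 11.0% of all genes were, and Fap was at 0 in every library. The libraries came from GFP-positive sorted cells, and the paper describes growth of the ES cells on gelatin at the start of directed differentiation. Whether feeder fibroblasts were absent from the libraries was not tested. The part of these markers in the lower Hox values of Isl1_KO replicate 2 was not tested.

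Among the 11 TALE cofactor genes, 1 was called, lower: Meis1, a DNA-binding partner of Hox proteins, was at 45.1 and 43.6 CPM in control and 10.2 and 5.90 CPM in Isl1_KO libraries (log2 fold change -2.45, SE 0.246, edgeR adjusted p = 0.0173). Its values did not overlap between groups, and like most Hox genes it was lower in replicate 2 than in replicate 1. Of the 13 retinoic acid responsive genes, 11 were tested, 2 were called lower and 0 higher, and 10 of 11 log2 fold changes were below 0, with a median of -0.62. Rarb, a retinoic acid receptor that is itself a target of the signal, fell from 12.6 and 13.8 CPM to 3.92 and 2.78 CPM (log2 fold change -1.97, SE 0.224, edgeR adjusted p = 0.0240). Crabp2, a retinoic acid binding protein, fell from 18.3 and 18.9 CPM to 8.99 and 9.63 CPM (log2 fold change -0.999, SE 0.136, edgeR adjusted p = 0.0359). Of 27 activators and regulators of the Hox clusters, 25 were in the table, 22 were tested and 1 was called, again Rarb, which is on both lists. Without control replicate 1 or 2 these calls were lost, with edgeR adjusted p of 0.224 and 0.178 for Meis1, 0.316 and 0.341 for Rarb and 0.4996 and 0.494 for Crabp2.

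Of 20 non-Hox genes that flank the clusters, 17 were in the table and 15 were tested. Of these, 0 were called by edgeR and 0 by DESeq2. At an unadjusted p, 3 were lower and 2 higher, where 12.2% and 11.0% of all genes were. The median log2 fold change of the 15 was -0.086. The smallest edgeR adjusted p among them was 0.0806, for Skap1 next to HoxB, with 13 and 13 counts in the controls and 44 and 47 in Isl1_KO libraries. Evx1, next to HoxA, was not called (log2 fold change 0.13), and Evx2, next to HoxD, had 4 and 5 counts in the controls and 0 in both Isl1_KO libraries, too few to be tested. None of the 25 non-coding RNAs of the clusters that were looked for were found by name in the table.

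With the criteria stated in the study's methods, an absolute log2 fold change over 0.58 and an unadjusted DESeq2 p under 0.05, 12 Hox genes were lower and 2 higher, where 4.57% and 1.32% of 16855 genes were. The 2 higher were Hoxb5 and Hoxb6. The 12 lower comprised 4 in HoxA, 1 in HoxC and 7 in HoxD. At a DESeq2 adjusted p of 0.05, 4 were lower (Hoxa9, Hoxa10, Hoxa11 and Hoxd4; 3.18% of genes) and 0 higher.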

How the data were processed

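The authors mapped the RNA-Seq reads to the mm9 genome with STAR, counted exonic reads of each RefSeq transcript on both strands together with HOMER, and deposited whole-number counts per transcript. RPKM values, which the authors derived from these counts with edgeR, were used here only for levels and shares between genes. The versions used by the authors are not given in the sources used here. Columns of the authors' own DESeq2 comparison (mean level, log2 fold change, its error, statistic and p-values) were not used. The number of per-sample columns without a matched sample was 0.

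Of 31507 entries, the one with the highest summed count was kept for each of 20701 symbols. Genes passing filterByExpr (12715) were tested with edgeR 4.0.16 (TMM, glmQLFit and glmQLFTest, two-sided, no covariate) in R 4.3.3; p-values were adjusted by Benjamini-Hochberg over all genes, with a threshold of 0.05. CPM used effective library sizes. The test was run on simulated counts with known fold changes and the same spread in both groups. That simulation does not cover the unequal spread of these data. Counting error is all that the floor of 3 counts covers, since the reads carried no molecular identifiers. DESeq2 1.42.0, other filters and scalings, other entries per symbol, a replicate block and each library left out were tried. Deviations of same-numbered samples correlated at 0.00947, and the numbers were not taken as pairs. Because the control pair varied so little, this correlation could not show whether they were pairs.

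The naming rule took tested Hox genes, Isl1, Nkx2-5 and, from 14 lists, genes past the adjusted threshold (up to 5 per list); 2 of the genes it took, and some sequences, are not reported here. The members and lists were chosen with earlier results of these data known. Genes were placed with GENCODE vM1 on NCBIM37 (the assembly behind mm9), and upstream windows of the RefSeq table (GRCm38.p6) were placed on it by exact match. Proteins were not compared, since no protein table was used here. Figures were drawn with matplotlib 3.10.9 under Python 3.11.15.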

Additional observations from a re-analysis of the deposited data

How the results depend on the processing

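The number of genes called was 311 as reported, 492 without a filter on low counts, 602 by DESeq2 at an adjusted p of 0.05, 993 by the study's criteria and between 8 and 6337 with 1 library left out. The number of Hox genes called was 3 as reported, 14 by the study's criteria and between 0 and 24 with 1 library left out; a single library left in a group is then assumed to vary like the other group. When the replicate number entered as a block, 454 genes and 4 Hox genes were called, Hoxd9 in addition to Hoxa9, Hoxa10 and Hoxa11, and the Hox median was -0.86. DESeq2 added Hoxd4 and the fit without a filter added Hoxd10, while a minimum of 10 counts in every library left 2 Hox genes of 217 genes called. With DESeq2 size factors, with all entries tested or with the entry chosen by counts per kb, the 3 calls remained. The Hox median stayed between -1.25 and -0.31 with 1 library left out. Of the 30 tested Hox genes, 29 kept their sign without control replicate 1, without control replicate 2 and without Isl1_KO replicate 1, and 27 without Isl1_KO replicate 2. Among the members named here, signs turned for Hoxa5 (0.36 without control replicate 1 and 0.20 without Isl1_KO replicate 2; range -0.93 to 0.36), Hoxb7 (0.20 without Isl1_KO replicate 2; range -0.98 to 0.20) and Hoxd1 (-0.59 without Isl1_KO replicate 2; range -0.59 to 0.87); the cause was not tested. Members with few counts, such as Hoxa5, are limited by depth.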

Other observations

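Gene lists outside the Hox clusters were counted in the same edgeR test. At an unadjusted edgeR p under 0.05, 12.2% of all genes tested were lower and 11.0% higher. Of 12 second heart field genes, 10 were tested and 3 were called lower. Among them were Isl1, the deleted gene, and Wnt2 (a signalling ligand of the posterior heart field, log2 fold change -1.56, edgeR adjusted p = 0.0270). The list was mixed, with 6 of 10 log2 fold changes below 0. At an unadjusted p, 4 of its genes were lower and 1 higher, Foxf1 (log2 fold change 0.55). DESeq2 called 4 of the list, Foxf1 among them. Of 12 endothelial and blood markers, all tested, 1 was called, higher: Runx1, a transcription factor of blood formation, rose by a log2 fold change of 0.57 (edgeR adjusted p = 0.0335). The list was split, with 5 of the 12 log2 fold changes below 0. At an unadjusted p, 3 of its genes were lower and 4 higher, and DESeq2 called 3 (Tek lower, Tal1 and Runx1 higher). Without control replicate 1 or 2, the adjusted p was 0.316 and 0.311 for Wnt2 and 0.538 and 0.475 for Runx1. In 5 further lists edgeR called 0 genes, namely paraxial and presomitic mesoderm (4 tested, 1 lower at an unadjusted p and 1 called by DESeq2), neural (6 tested, 2 lower), endoderm (8 tested, 1 lower and 1 higher), pluripotency (6 tested, 0 at an unadjusted p) and limb, trunk and axial position homeobox genes (6 tested, 1 lower and 1 higher), and DESeq2 called 0 in the last 4.

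Several genes that are not Hox genes had levels split between the Isl1_KO clones like some members; they were chosen after their values were seen, and none was called. Tbx4, a hindlimb T-box gene, was at 43.8 and 43.9 CPM in control and 18.99 and 5.03 CPM in Isl1_KO replicates 1 and 2 (edgeR adjusted p = 0.137), and Pitx1, a hindlimb homeobox gene, was at 70.0 and 69.2 CPM and then 40.7 and 6.94 CPM (edgeR adjusted p = 0.268). Col3a1, a fibrillar collagen of mesenchyme, was at 684.1 and 648.8 CPM and then 428.8 and 55.4 CPM, in the order of most Hox genes. T, the primitive streak gene Brachyury, was at 12.6 and 12.04 CPM in control and 7.61 and 40.6 CPM in Isl1_KO libraries, the pattern of Hoxd1. Cdx2, a direct activator of central Hox genes, was at 84.0 and 87.8 CPM and then 139.5 and 69.0 CPM. Like Hoxb6 and Hoxb8 it was highest in Isl1_KO replicate 1, but the central genes Hoxa7 and Hoxc8 were not. In Isl1_KO replicate 2 Cdx2 was below both controls, while Hoxb6 and Hoxb8 were just above theirs. A link between Cdx2 and these genes was not tested.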
